A study of Arabidopsis thaliana with 12 samples.

Results

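The 33 loci of the xyloglucan endotransglucosylase/hydrolase family of Arabidopsis, XTH1 to XTH33, were followed on microarrays of salt-treated and untreated seedlings. The family is the unit, its members are set by locus, and no signal enters that rule. All 33 loci had a probe, with 42 probes in all, among the 25405 loci that could be named on the array. Of the 19027 loci that passed the filter on dim probes, 28 were XTH genes, and the other 5 (XTH1, XTH2, XTH3, XTH13 and XTH25) were too dim to be tested and are described by their signals.

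Xyloglucan is the main hemicellulose of the primary wall of Arabidopsis, where it coats and tethers cellulose microfibrils. XTH proteins are secreted enzymes that cut a xyloglucan chain and either rejoin the new end to another chain, which is endotransglucosylation, or pass it to water, which is hydrolysis. By these reactions the wall is loosened, extended and rebuilt during cell expansion, in root hairs, in vascular tissue and after mechanical or environmental stimuli. The genes are numbered by class, with XTH1 to XTH11 in class I, XTH12 to XTH26 in class II and XTH27 to XTH33 in class III, where XTH31 and XTH32 belong to the subgroup of predominant hydrolases.

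RNA came from whole 10-day-old seedlings grown on Murashige and Skoog medium of reduced strength, of wild type (ecotype Landsberg erecta, Ler) and of proatcape1, a T-DNA insertion mutant of PROAtCAPE1 (AT4G33730) in the Ler background that is represented by a single insertion line. Both genotypes were sampled in medium alone at 0 h (control) and after 12 h in 125 mM NaCl (salt). The 4 groups held 3 biological repeats each, with 1 array per sample and 12 arrays in all, and the arrays address how the mutation alters the transcriptional response to salt. Because every control was harvested at 0 h and every salt sample at 12 h, the effect of salt, the hours elapsed and the time of day cannot be told apart in any salt effect below.

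On each array 71.8% to 78.8% of probes had a signal well above background, no spot was saturated, and arrays of the same group correlated at 0.994 or more. The PROAtCAPE1 probe was well above background on all 6 wild-type arrays and on none of the 6 proatcape1 arrays. Markers of root hairs (7 genes) had a summed level of 278% to 341% of the 75th percentile in wild type control and 64.3% to 88.5% in wild type salt, and of 245% to 304% and 63.8% to 73.6% in proatcape1. Markers of other root tissue (5 genes) were at 1337% to 1601% and 502% to 609% in wild type and at 1386% to 1609% and 655% to 698% in proatcape1, control and salt respectively. Of the 7 root hair markers, 6 fell in wild type and 7 in proatcape1. Of the 5 other root markers, 3 fell and 2 did not pass in each genotype, the highest log2 change being 0.37 in wild type and 0.26 in proatcape1. Green shoot markers (5 genes) fell in 1 member in wild type and in none in proatcape1. Among all loci tested 21.8% fell in wild type and 26.2% in proatcape1. Between genotypes, 1 of the 5 other root markers was lower in proatcape1 control and 1 was higher in proatcape1 under salt. No root hair or green shoot marker passed there. Among all loci, 1.15% were lower in proatcape1 control and 2.72% higher in proatcape1 under salt. The 3 pollen markers were not well above background on any array, and the 3 seed storage markers reached a summed level of at most 1.13% in wild type control, 37.9% in wild type salt, 76.4% in proatcape1 control and 24.5% in proatcape1 salt. In seedlings sampled whole, fewer cells of a type and less RNA per cell cannot be told apart, and the part of these marker changes in the XTH values was not tested.

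Levels are given as the background-corrected signal in percent of the 75th percentile of the signals on the same array, for replicates 1, 2 and 3 in that order, and where a genotype is given with 2 sets of values the first is control and the second salt. They compare arrays for the same gene and not different genes. Changes are differences of log2 signal from a limma fit over the 12 arrays, each with its standard error (SE), and every group has 3 arrays. A gene is said to rise or fall under salt, or to be higher or lower in a genotype, where its change exceeded 1.5-fold and the adjusted p was 0.05 or less.

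In wild type, salt-treated seedlings had less transcript of most XTH genes and more of a few. Of the 28 members tested, 15 fell, 4 rose and 9 passed in neither direction, and the median log2 change was −0.66. Over all loci tested the median was −0.11, with 21.8% of loci falling and 17.5% rising. In proatcape1, 14 members fell, 7 rose and 7 did not pass, with a median of −0.59, where 26.2% of all loci fell and 19.6% rose, with a median of −0.13. Of the 28, 24 passed the filter on dim probes in both treatments, XTH11 and XTH29 through their salt arrays alone and XTH12 and XTH33 through their control arrays alone, so these 4 entered the test only through the treatment in which they were brighter. Among the other 24, 13 fell and 2 rose in wild type and 12 fell and 5 rose in proatcape1. Signals of the control and salt arrays did not overlap for 23 of the 28 members in wild type, where 81% of all loci did not overlap, and for 24 in proatcape1, where 84.8% did not. In both genotypes 13 members fell (XTH4, XTH7, XTH8, XTH9, XTH12, XTH14, XTH15, XTH20, XTH21, XTH24, XTH28, XTH31 and XTH33), and 4 rose (XTH11, XTH23, XTH29 and XTH32). The other 11 were XTH17 and XTH26, which fell in wild type and did not pass in proatcape1, XTH16, which fell in proatcape1 and did not pass in wild type, XTH18, XTH22 and XTH27, which rose in proatcape1 and did not pass in wild type, and XTH5, XTH6, XTH10, XTH19 and XTH30, which passed in neither. A call in a single genotype does not by itself show a difference between the genotypes, and the interaction test of that difference is given for these members further on.

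**Figure D1:**
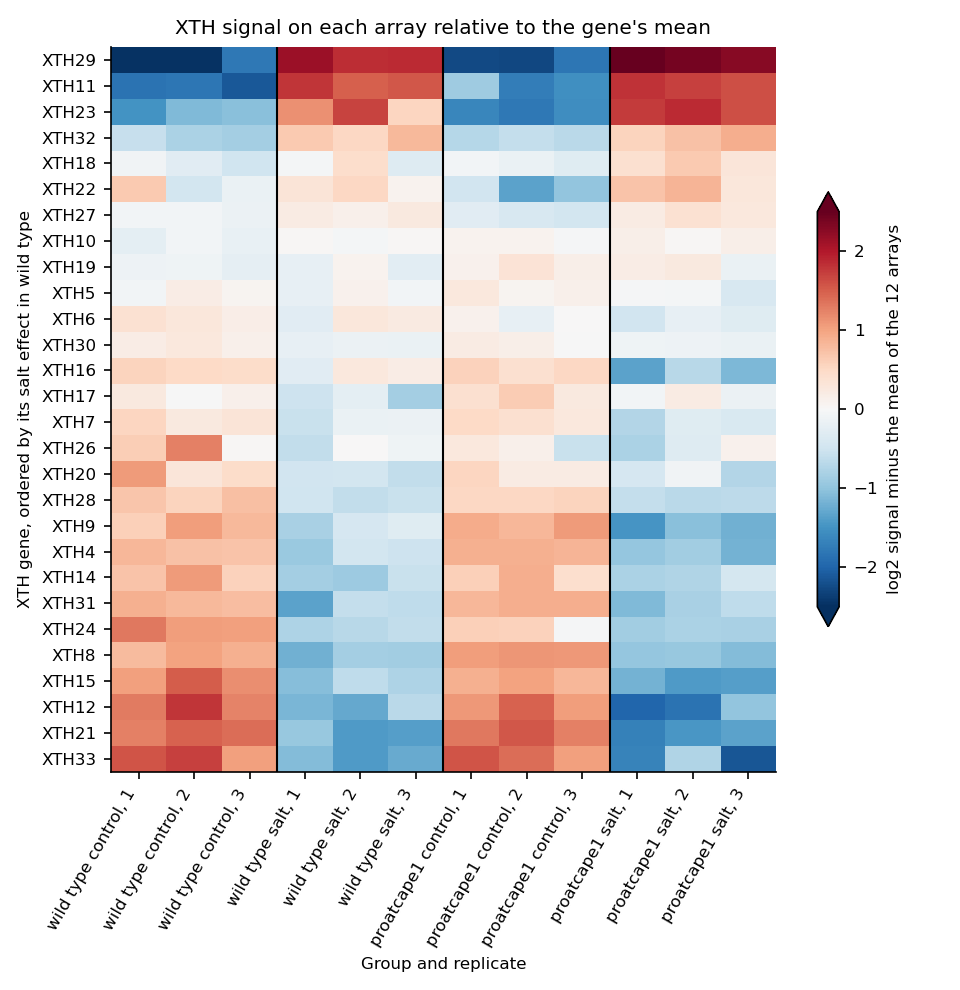
Log2 signal of the 28 tested XTH genes (vertical axis) on each of the 12 arrays (horizontal axis), with the mean of the gene over the 12 arrays subtracted. The 4 genes that rose in both genotypes are blue on control and red on salt arrays at the top, and the 13 that fell in both fill most of the lower rows in the opposite colours.

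XTH29 (AT4G18990), a class III gene known to be induced by abiotic stress, rose in both genotypes from controls below detection. On the wild type control arrays it was at 0.280%, 0.278% and 0.448%, not well above background on any of them, and on the wild type salt arrays at 6.80%, 5.56% and 5.62%. In proatcape1 it was at 0.323%, 0.320% and 0.441% in control, again not well above background, and at 8.92%, 8.09% and 7.52% in salt. All 6 salt arrays thus lay far above all 6 control arrays. Only a bound holds against such controls, at least 8.45-fold in wild type and at least 9.24-fold in proatcape1, where it sets the salt mean against, on each control array, the higher of the lowest signal well above background and the gene's own signal. The fit on the measured signals, which lie below detection in the controls, passed with adjusted p = 9.09e-09 and 3.91e-09. XTH29 also entered the test through its salt arrays alone.

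XTH11 (AT3G48580), which entered the test through its salt arrays alone, was the only class I gene that rose. Its wild type levels were 2.64%, 2.70% and 2.17% in control and 32.8%, 26.6% and 27.7% in salt, a change of 3.54 (SE 0.19, adjusted p = 2.91e-08). The proatcape1 levels were 5.16%, 2.85% and 3.27% and 33.2%, 30.9% and 28.9%, a change of 3.09 (SE 0.19, adjusted p = 5.49e-08). No control array of either genotype came near any salt array, and proatcape1 control replicate 1 was the highest control.

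XTH23 (AT4G25810), known as a gene of lateral root growth under salt that acts downstream of the brassinosteroid factor BES1, rose in both genotypes. Wild type had 10.9%, 14.2% and 14.8% in control and 67.8%, 99.1% and 44.7% in salt, with a change of 2.34 (SE 0.23, adjusted p = 3.75e-06). In proatcape1 the levels were 9.84%, 8.93% and 10.5% and 104%, 112% and 93.2%, with a change of 3.40 (SE 0.23, adjusted p = 1.43e-07). Control and salt arrays did not overlap in either genotype, and wild type salt replicate 2 lay within the range of the proatcape1 salt arrays while the other wild type salt arrays lay below it.

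XTH32 (AT2G36870), of the hydrolase subgroup of class III, rose by nearly the same amount in both genotypes. In wild type it went from 43.2%, 37.3% and 35.8% in control to 101%, 91.5% and 113% in salt, a change of 1.39 (SE 0.10, adjusted p = 3.76e-07). In proatcape1 it went from 39.0%, 42.5% and 40.5% to 95.1%, 107% and 120.2%, a change of 1.40 (SE 0.10, adjusted p = 2.62e-07). The 95% interval of the difference between the 2 salt effects was −0.32 to 0.33.

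XTH31 (AT3G44990), the other gene of the hydrolase subgroup and known from work on aluminium tolerance in roots, changed in the opposite direction to XTH32. Its levels were 689.6%, 656% and 634% in wild type control and 148%, 246% and 239% in wild type salt, a change of −1.68 (SE 0.17, adjusted p = 5.19e-06). In proatcape1 they were 663%, 696% and 704% and 174%, 211% and 241%, a change of −1.73 (SE 0.17, adjusted p = 3.2e-06). Every salt array was below every control array, and the lowest was wild type salt replicate 1.

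**Figure D2:**
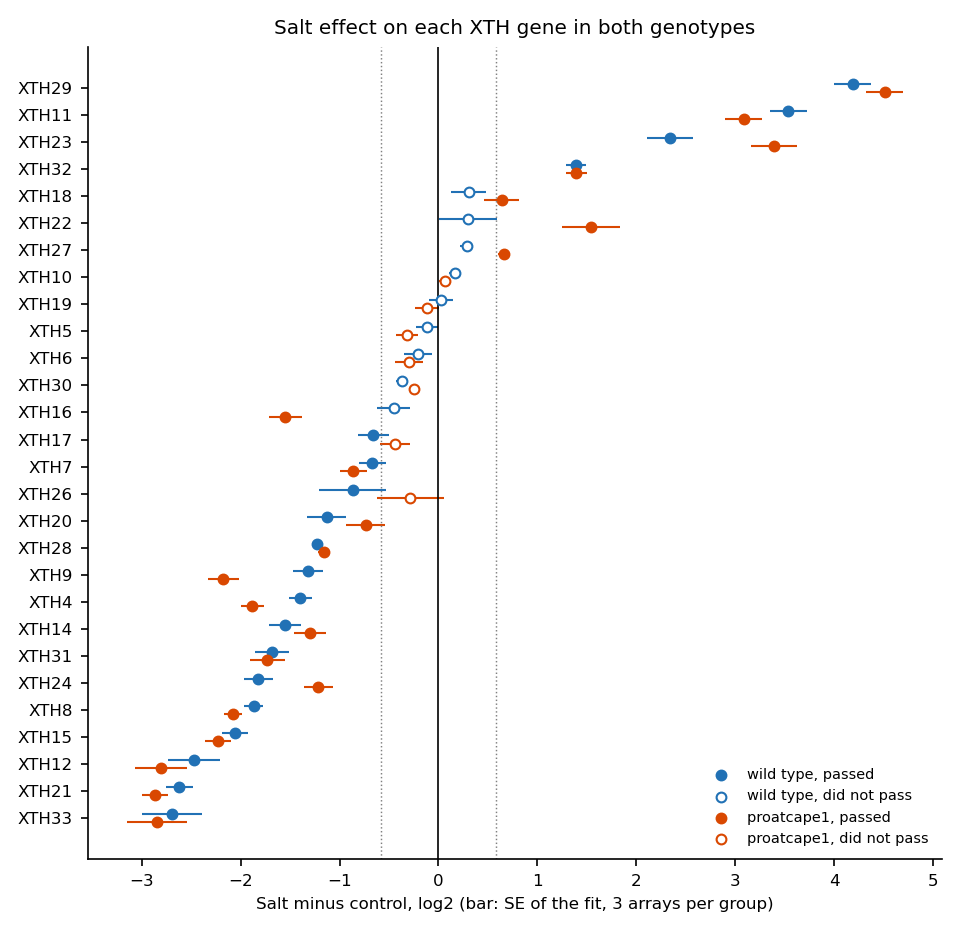
Salt effect (salt minus control, log2) on each of the 28 tested XTH genes in wild type (blue) and proatcape1 (orange), with bars for the SE of the fit, filled points for genes that passed and dotted lines at a 1.5-fold change. The points of the 2 genotypes are farthest apart for XTH22, XTH16, XTH23 and XTH9, and those of XTH29, at the top, rest on control signals not well above background, where only a bound of at least 8.45-fold in wild type and 9.24-fold in proatcape1 holds.

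Among genes linked to growth of the shoot, XTH4 (AT2G06850) and XTH9 (AT4G03210), which are known from secondary growth and elongation of stems, both fell. XTH4 was at 1568%, 1475% and 1457% in wild type control and 463%, 644% and 619% in wild type salt, with a change of −1.40 (SE 0.12, adjusted p = 9.06e-07). Its proatcape1 levels were 1641%, 1642% and 1599% and 453%, 487% and 390.1%, with a change of −1.88 (SE 0.12, adjusted p = 6.3e-08). XTH9 was at 1236%, 1685% and 1434% and 471%, 616% and 663% in wild type, where it changed by −1.32 (SE 0.15, adjusted p = 1.4e-05). Its proatcape1 levels were 1563%, 1450.0% and 1709% and 296%, 399.7% and 357%, a change of −2.17 (SE 0.15, adjusted p = 1.92e-07). For both genes the salt arrays were below all controls in each genotype, and the 3 proatcape1 salt arrays of XTH9 were below the 3 wild type salt arrays.

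XTH15 (AT4G14130, also XTR7), XTH16 (AT3G23730) and XTH17 (AT1G65310) are genes whose transcripts are known to follow shade-induced elongation. XTH15 went from 186%, 258% and 205% to 43.8%, 58.6% and 53.4% in wild type, a change of −2.05 (SE 0.13, adjusted p = 1.24e-07). In proatcape1 it went from 169%, 183% and 162% to 39.9%, 34.3% and 35.2%, a change of −2.23 (SE 0.13, adjusted p = 4.54e-08). Control and salt arrays of XTH15 were clearly apart in both genotypes. XTH16 was at 359.7%, 348% and 338% in wild type control and 201%, 295% and 279% in wild type salt, where the change of −0.45 (SE 0.17, adjusted p = 0.0265) was under 1.5-fold. In proatcape1 it was at 365%, 326% and 350.4% and 97.2%, 152% and 113%, a change of −1.55 (SE 0.17, adjusted p = 5.28e-06). The highest proatcape1 salt array of XTH16 was below the lowest wild type salt array, although the control arrays of the genotypes overlapped.

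XTH17 was at 28.8%, 24.1% and 26.4% in wild type control and 17.0%, 20.4% and 13.4% in wild type salt. Its change of −0.66 (SE 0.15, adjusted p = 0.00241) was just past 1.5-fold, and without wild type salt replicate 3 it was −0.50 (adjusted p = 0.00897) and did not pass. In proatcape1 the levels were 32.2%, 37.7% and 28.9% and 23.1%, 27.9% and 21.8%, and the change of −0.44 (SE 0.15, adjusted p = 0.0213) did not pass. The salt arrays were below the controls in both genotypes. XTH24 (AT4G30270, also MERI5B), first found through its meristem transcripts, was at 2039%, 1698% and 1674% in wild type control and 481%, 508% and 536% in wild type salt, a change of −1.82 (SE 0.15, adjusted p = 7.7e-07). In proatcape1 it was at 1244%, 1223% and 799% and 445%, 470.2% and 464%, a change of −1.21 (SE 0.15, adjusted p = 1.56e-05). The proatcape1 controls of XTH24 were all below the wild type controls, with replicate 3 the lowest, while the salt arrays of the genotypes were close together.

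XTH22 (AT5G57560), better known as TCH4 and inducible by touch, brassinosteroid and auxin, varied more between controls than most members. Its levels were 311%, 143% and 176% in wild type control and 247%, 281% and 211% in wild type salt, so that the groups overlapped, and the change was 0.30 (SE 0.29, adjusted p = 0.359). Wild type control replicate 1 was the high array, and without it the change was 0.63 (adjusted p = 0.0425) and passed. In proatcape1 the gene rose from 142%, 77.6% and 99.6% to 323%, 353% and 239%, a change of 1.55 (SE 0.29, adjusted p = 0.000492), with every salt array above every control.

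XTH genes known from roots changed in different directions, beside the lower summed levels of the root hair and other root markers given above. XTH14, XTH20 and XTH21 fell in both genotypes, XTH17 and XTH26 fell in wild type, XTH18 rose in proatcape1, XTH23 rose in both, and XTH19 passed in neither. XTH21 (AT2G18800), which is needed for normal root growth, was at 31.3%, 36.5% and 34.4% in wild type control and 6.78%, 4.91% and 5.09% in wild type salt, a change of −2.62 (SE 0.13, adjusted p = 2.4e-08). In proatcape1 it was at 32.7%, 38.4% and 31.5% and 4.06%, 4.83% and 5.21%, a change of −2.87 (SE 0.13, adjusted p = 9.06e-09). The salt arrays of XTH21 were far below all controls, and those of the 2 genotypes overlapped. XTH12 (AT5G57530), studied as a recombinant transglucosylase, was dim, at 10.7%, 15.0% and 10.3% in wild type control and 1.96%, 1.80% and 2.73% in wild type salt, and fell, with a change of −2.47 (SE 0.26, adjusted p = 6.17e-06). In proatcape1 it went from 9.24%, 12.0% and 8.98% to 1.11%, 1.20% and 2.19%, a change of −2.81 (SE 0.26, adjusted p = 1.71e-06), and proatcape1 salt replicate 2 was not well above background. The controls of XTH12 were above the salt arrays in both genotypes, and the gene entered the test through its control arrays alone.

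XTH14 (AT4G25820) and XTH26 (AT4G28850) encode enzymes that act at the root surface and in root hairs. XTH14 was at 278%, 351% and 252% in wild type control and 93.6%, 90.0% and 115% in wild type salt, a change of −1.55 (SE 0.16, adjusted p = 5.04e-06). The mutant had 254%, 316% and 226% and 97.5%, 101% and 125%, a change of −1.30 (SE 0.16, adjusted p = 1.75e-05). On each slide, which held 1 array of each group, XTH14 was lower in salt than in control in both genotypes. XTH26 varied strongly between replicates, with 14.4%, 22.8% and 9.64% in wild type control and 6.18%, 9.53% and 8.85% in wild type salt. The lowest control lay just above the highest salt array. The change of −0.87 (SE 0.34, adjusted p = 0.0357) in wild type passed, but without control replicate 1 or 2 or salt replicate 1 or 3 the adjusted p was 0.0673, 0.146, 0.126 and 0.053, respectively, and it did not pass. In proatcape1 XTH26 was at 11.4%, 10.3% and 6.42% and 5.46%, 7.53% and 10.2%, with overlapping groups and a change of −0.29 (SE 0.34, adjusted p = 0.447).

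XTH18 (AT4G30280), XTH19 (AT4G30290) and XTH20 (AT5G48070) are expressed in roots, and XTH19 and XTH20 are also known from the healing of cut stems. XTH18 was at 396%, 347% and 298% in wild type control and 406%, 570.0% and 335% in wild type salt, where the groups overlapped and the change was 0.31 (SE 0.18, adjusted p = 0.133). In proatcape1 it rose from 400.0%, 373% and 342% to 555%, 667% and 522%, a change of 0.64 (SE 0.18, adjusted p = 0.00601) that was 0.58 without control replicate 3 and 0.54 without salt replicate 2 and then did not pass. XTH19 passed in neither genotype, with a change of 0.022 (SE 0.12, adjusted p = 0.876) in wild type and of −0.11 (SE 0.12, adjusted p = 0.397) in proatcape1 and all 12 arrays between 13.0% and 20.0%. XTH20 fell from 56.0%, 33.2% and 37.0% to 19.3%, 19.5% and 17.4% in wild type, a change of −1.13 (SE 0.20, adjusted p = 0.000325). In proatcape1 it fell from 39.1%, 30.9% and 31.1% to 19.9%, 25.1% and 16.2%, a change of −0.74 (SE 0.20, adjusted p = 0.00521), and without salt replicate 3 the change of −0.58 did not pass. XTH18 and XTH20 thus moved in opposite directions in proatcape1.

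In class III, XTH33 (AT1G10550), whose product is anchored at the plasma membrane, was at 17.3%, 19.1% and 11.9% in wild type control and 2.74%, 2.19% and 2.41% in wild type salt, a change of −2.69 (SE 0.30, adjusted p = 1.05e-05). The proatcape1 arrays gave 17.3%, 15.2% and 11.9% and 1.84%, 3.45% and 1.33%, a change of −2.85 (SE 0.30, adjusted p = 5.32e-06). All 6 salt arrays were below all 6 controls, and XTH33 entered the test through its control arrays alone. XTH28 (AT1G14720), known from stamen filament growth, fell with little spread between arrays, from 405%, 366% and 421% to 177%, 164% and 169% in wild type, a change of −1.22 (SE 0.055, adjusted p = 9.44e-09). In proatcape1 it fell from 357%, 355% and 365% to 166%, 157% and 159%, a change of −1.16 (SE 0.055, adjusted p = 9.6e-09). The size of the fall was close in the 2 genotypes, and the interval of its difference was −0.11 to 0.24.

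XTH27 (AT2G01850), known from tracheary elements of leaf veins, had a stronger signal on every salt array than on any control array. Wild type had 879.8%, 885% and 833% in control and 1062%, 1010.4% and 1096% in salt, and the change of 0.29 (SE 0.063, adjusted p = 0.00159) was under 1.5-fold. In proatcape1 the gene rose from 765%, 704% and 672% to 1068%, 1214% and 1114%, a change of 0.67 (SE 0.063, adjusted p = 1.99e-06). XTH30 (AT1G32170), whose loss is known to alter salt tolerance, changed by −0.37 (SE 0.057, adjusted p = 0.000133) in wild type and −0.24 (SE 0.057, adjusted p = 0.00229) in proatcape1, below 1.5-fold although the salt arrays, at 231% to 242% and 239.5% to 249%, lay below the controls, at 293% to 321% and 266% to 308%.

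The remaining class I genes, for which no role is given here, either fell or changed little. XTH8 (AT1G11545) fell from 177%, 204% and 189.8% to 44.2%, 57.0% and 55.9% in wild type, a change of −1.87 (SE 0.092, adjusted p = 1.8e-08), and from 212%, 219% and 216% to 52.6%, 52.8% and 48.3% in proatcape1, a change of −2.08 (SE 0.092, adjusted p = 6.06e-09). The groups were far apart in both genotypes. XTH7 (AT4G37800) fell in wild type, with −0.67 (SE 0.14, adjusted p = 0.00105), and in proatcape1, with −0.86 (SE 0.14, adjusted p = 0.000147), and the wild type change was −0.58 without control replicate 1, −0.54 without salt replicate 1 and −0.55 under quantile normalization, each under 1.5-fold. XTH5 (AT5G13870), XTH6 (AT5G65730) and XTH10 (AT2G14620) passed in neither genotype, with wild type changes of −0.11, −0.21 and 0.17 and proatcape1 changes of −0.32, −0.30 and 0.064.

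By class, and against 21.8% of all loci falling and 17.5% rising in wild type and 26.2% and 19.6% in proatcape1, 4 of the 8 tested class I genes fell and 1 rose in each genotype. In class II, 8 of 13 fell and 1 rose in wild type, and 7 fell and 3 rose in proatcape1. In class III, 3 of 7 fell and 2 rose in wild type, and 3 fell and 3 rose in proatcape1. Median log2 changes in wild type were −0.44, −0.87 and −0.37 for classes I, II and III, against −0.11 for all loci tested. Each class held genes changing in both directions, in class I only through XTH11. These counts and medians include XTH11, XTH12, XTH29 and XTH33, which entered the test only through the treatment in which they were brighter.

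The genotypes were then compared within each treatment. In medium alone XTH24 was lower in proatcape1, with a log2 difference of −0.75 (SE 0.15, adjusted p = 0.0163), and no member was higher, where 1.15% of all loci were lower and 0.972% higher. The difference was −0.71, −0.47 and −1.07 on slides 1, 2 and 3. The call was lost when wild type control replicate 1 was left out (−0.66, adjusted p = 0.067), without proatcape1 control replicate 3 (−0.54, under 1.5-fold) and in a fit of the control groups alone (adjusted p = 0.0898). The difference of XTH22 was negative on every slide but, at −0.94 (SE 0.29, adjusted p = 0.0931), did not pass, and without wild type control replicate 2 it was −1.18 (adjusted p = 0.0389) and passed. With the slide as a block within each treatment, a fit that pairs the genotypes and was chosen after seeing the data, XTH22 was lower in proatcape1 control (adjusted p = 0.00182) and XTH24 remained lower (adjusted p = 0.0131). XTH27 differed by −0.28 (SE 0.063, adjusted p = 0.0287), below 1.5-fold. Signals of the genotypes did not overlap for 13 of the 28 members in control, against 25.9% of all loci.

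Under salt, XTH9 and XTH16 were lower in proatcape1 than in wild type, and no member was higher, where 1.92% of all loci were lower and 2.72% higher. XTH9 differed by −0.73 (SE 0.15, adjusted p = 0.00658), with −0.67, −0.62 and −0.89 on slides 1, 2 and 3. XTH16 differed by −1.10 (SE 0.17, adjusted p = 0.00159), with −1.05, −0.96 and −1.30 on the slides. Both kept the call with any 1 array left out, and with the arrays of scan day 1 alone (slides 1 and 2) the adjusted p was 0.0967 for XTH9 and 0.0577 for XTH16. XTH15 differed by −0.50 (SE 0.13, adjusted p = 0.0159) and XTH17 by 0.53 (SE 0.15, adjusted p = 0.0246), each with the same sign on every slide but under 1.5-fold. XTH23 had a difference of 0.61 (SE 0.23, adjusted p = 0.0637), and without wild type salt replicate 2 it was 0.90 (adjusted p = 0.0113) and passed. It also passed with the slide as a block within each treatment (adjusted p = 0.0291), where XTH9 (adjusted p = 0.00475) and XTH16 (adjusted p = 0.000567) kept their calls. Without that same array XTH17 (0.68, adjusted p = 0.0151) and XTH18 (0.65, adjusted p = 0.0152) also passed. XTH17 passed too without proatcape1 salt replicate 3 (0.60, adjusted p = 0.0333), as did XTH12 (−0.88, adjusted p = 0.0179), and XTH15 passed without wild type salt replicate 1 (−0.62, adjusted p = 0.00606). Signals of the genotypes did not overlap for 6 of the 28 members under salt, against 48.8% of all loci.

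**Figure D3:**
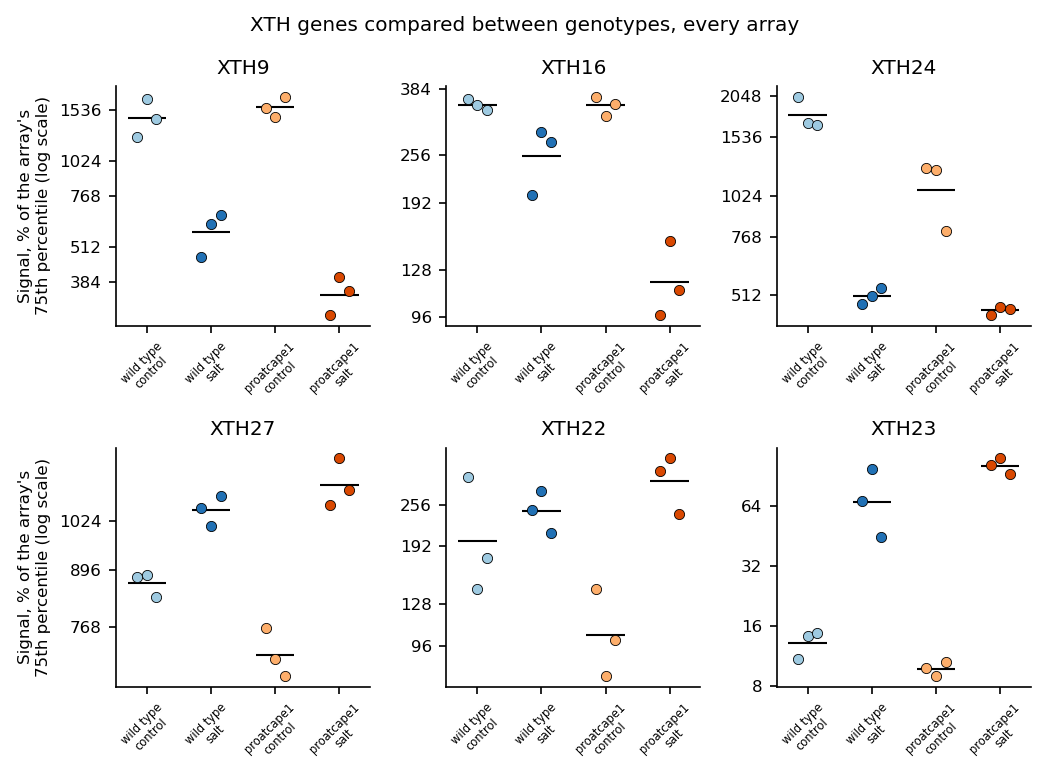
Signal in percent of the 75th percentile of the array (log scale, a separate range in each panel) for 6 XTH genes in the 4 groups, with 1 point per array and a line at the geometric mean. XTH9 and XTH16 are at similar levels in the 2 control groups and lower in proatcape1 under salt, XTH24 and XTH27 start lower in proatcape1 control, and wild type control replicate 1 stands above the other controls for XTH22.

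The interaction, for which the salt effect of wild type was subtracted from that of proatcape1, tested whether the responses differed. It passed in the negative direction for XTH9, at −0.85 (SE 0.22, adjusted p = 0.0426), and XTH16, at −1.10 (SE 0.23, adjusted p = 0.0253), and for no member in the positive direction, where 1.29% of all loci passed in the negative and 1.27% in the positive direction. On slides 1, 2 and 3 the interaction of XTH9 was −1.01, −0.41 and −1.15 and that of XTH16 was −1.07, −0.86 and −1.35. The replicate numbers did not pair control with salt, so slide values of the interaction are not matched repeats. Both calls lay near the threshold. With no filter on dim probes the adjusted p was 0.0868 for XTH9 and 0.0577 for XTH16, with slides 1 and 2 alone it was 0.346 and 0.292, and under median scaling that of XTH9 was 0.0509. That of XTH9 was lost without any 1 of 9 of the 12 arrays, with adjusted p between 0.0528 and 0.103, the exceptions being wild type control replicate 2, wild type salt replicate 1 and proatcape1 salt replicate 2. That of XTH16 was lost, with adjusted p between 0.0538 and 0.0619, without wild type control replicate 3, proatcape1 control replicate 1 or 3, wild type salt replicate 2 or 3 or proatcape1 salt replicate 1.

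Slide values of the interaction are again not matched repeats, as the replicate numbers did not pair control with salt. Among the other members, XTH27 had an interaction of 0.38 (SE 0.089, adjusted p = 0.0338), with the same sign on all 3 slides and a size below 1.5-fold. XTH22 had 1.24 (SE 0.41, adjusted p = 0.0885), XTH23 had 1.05 (SE 0.33, adjusted p = 0.0752) and XTH24 had 0.61 (SE 0.21, adjusted p = 0.0967), positive on all 3 slides but not past the threshold. With the slide as a block within each treatment these 3 passed, with adjusted p of 0.00654 for XTH22, 0.0369 for XTH23 and 0.0427 for XTH24, beside 0.0232 for XTH9 and 0.00778 for XTH16. Over all 19027 loci that fit gave 383 positive and 306 negative interactions, against 241 and 246 without a block. Without wild type salt replicate 2 the interaction of XTH23 was 1.34 (adjusted p = 0.0316), and without wild type salt replicate 1 that of XTH4, at −0.49 (SE 0.16, adjusted p = 0.0918) on all arrays, was −0.63 (adjusted p = 0.00921). For XTH17, XTH18 and XTH26, which were called in a single genotype, the adjusted p of the interaction was 0.551, 0.418 and 0.461, so a difference in their salt response was not shown.

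Of the 33 loci, 12 lie on chromosome 4 and 7 on chromosome 5, and 11 have another XTH gene as a close neighbour. On chromosome 4, XTH23 and XTH14 lie side by side and changed in opposite directions, by 2.34 and −1.55 in wild type and by 3.40 and −1.30 in proatcape1. XTH24, XTH18 and XTH19 follow each other on the same chromosome, and XTH24 fell while XTH19 did not pass in either genotype. On chromosome 5, XTH12, XTH13, XTH25 and XTH22 form a row with 1 other coding gene between XTH12 and XTH13, in which XTH12 fell and XTH22 rose in proatcape1. XTH1 and XTH2 also lie side by side on chromosome 4. Whether a probe also bound the transcript of a close relative was not tested.

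**Figure D4:**
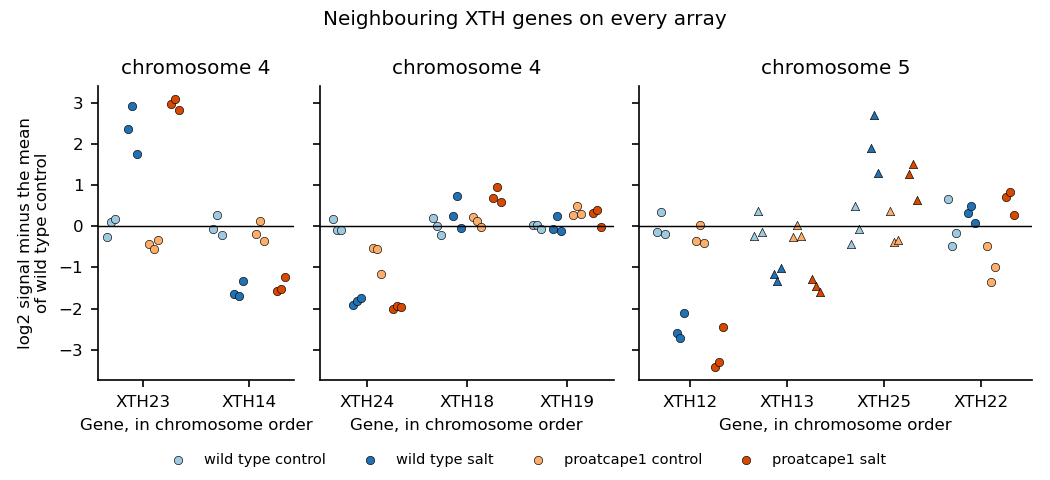
Log2 signal minus the mean of wild type control (vertical axis) for neighbouring XTH genes in chromosome order (horizontal axis), with 1 point per array coloured by group and triangles for the untested XTH13 and XTH25. XTH23 and XTH14 move apart under salt, and in the row on chromosome 5 XTH12 and XTH13 lie below 0 and XTH25 above 0 in both salt groups.

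The 5 members outside the filter were mostly at the edge of detection. XTH1 (AT4G13080) and XTH3 (AT3G25050), which is known to act on cellulose as well as on xyloglucan, were not well above background on any of the 12 arrays, and XTH2 (AT4G13090) on only 1, proatcape1 control replicate 2. XTH13 (AT5G57540) was well above background on 11 arrays, with 3.50%, 5.26% and 3.75% in wild type control, 1.85%, 1.64% and 2.02% in wild type salt, 3.40%, 4.16% and 3.50% in proatcape1 control and 1.35% to 1.68% in proatcape1 salt. XTH25 (AT5G57550) was also above background on 11 arrays, with 1.29%, 2.43% and 1.66% and 6.45%, 11.2% and 4.25% in wild type and 2.23%, 1.32% and 1.38% and 4.14%, 4.91% and 2.69% in proatcape1. The salt arrays of XTH13 were all lower, and those of XTH25 all higher, than the controls of the same genotype. With a filter on the detection flag instead, XTH13 fell in wild type (−1.16, adjusted p = 5.35e-05) and in proatcape1 (−1.29, adjusted p = 2.02e-05), and XTH25 rose in wild type (1.96, adjusted p = 0.000818) and in proatcape1 (1.25, adjusted p = 0.0114).

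For 6 members more than 1 probe could be compared. The 5 probes of XTH24 gave salt effects between −1.90 and −1.75 in wild type and differences between the control groups of −0.76 to −0.70. Both probes of XTH9 gave −0.73 and −0.71 between genotypes under salt, and those of XTH4, XTH15 and XTH27 were as close, the widest gap being that of XTH15 in proatcape1, with salt effects of −2.23 and −2.36. The probes of XTH21 gave −2.62 and −2.22 in wild type but −2.87 and −1.84 in proatcape1, so the size of its fall in the mutant depended on the probe.

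Genes that make or trim xyloglucan, or loosen the wall, were read beside the family. Over all loci tested, 17.5% rose and 21.8% fell in wild type and 19.6% rose and 26.2% fell in proatcape1. Of 16 genes of xyloglucan synthesis, 3 rose and 2 fell in wild type and 3 rose and 3 fell in proatcape1. The largest changes were in AXY4L, a xyloglucan acetyltransferase gene, at 2.63 and 2.80 in wild type and proatcape1, and in XLT2, which adds galactose to the side chains, at 1.67 and 1.92. The largest that did not pass were the xylosyltransferase gene XXT2 (−0.57) and the glucan synthase gene CSLC5 (0.50) in wild type and the galacturonosyltransferase gene XUT1 (−0.56) and XXT1 (0.41) in proatcape1. AXY4L was also higher in proatcape1 than in wild type under salt, with a difference of 0.60 (SE 0.11, adjusted p = 0.0035).

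Of 5 genes for glycosidases that trim xyloglucan, 3 fell in wild type and 4 in proatcape1, and none rose. The shares of all loci that fell were 21.8% and 26.2%, and those that rose 17.5% and 19.6%. The β-galactosidase gene BGAL10 changed by −1.95 and −2.34 and the α-xylosidase gene XYL1 by −1.19 and −1.67 in wild type and proatcape1. BGLC3 (−0.40) and AXY8 (0.19) did not pass in wild type, nor AXY8 (−0.062) in proatcape1. Their median was −1.17 in wild type and −1.38 in proatcape1.

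Of 17 tested α-expansin genes, whose products loosen the wall without cutting it, 9 fell and 3 rose in each genotype, with medians of −0.62 and −0.88. Among all loci 21.8% fell and 17.5% rose in wild type, and 26.2% and 19.6% in proatcape1. EXPA8 fell in both genotypes (−3.20 and −3.45). The largest rise was that of EXPA10 in wild type, at 2.82, and that of EXPA16 in proatcape1, at 3.51. Naming the largest rise in a genotype says nothing of that gene in the other. The largest changes that did not pass were EXPA4 (−0.45) and EXPA11 (0.43) in wild type and EXPA13 (−0.50) and EXPA5 (0.39) in proatcape1. EXPA10 was lower in proatcape1 than in wild type under salt, with a difference of −0.75 (SE 0.14, adjusted p = 0.00385), and had a negative interaction of −0.85 (SE 0.20, adjusted p = 0.0324). EXPA3 had an interaction of −0.85 (SE 0.14, adjusted p = 0.0127).

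**Figure D5:**
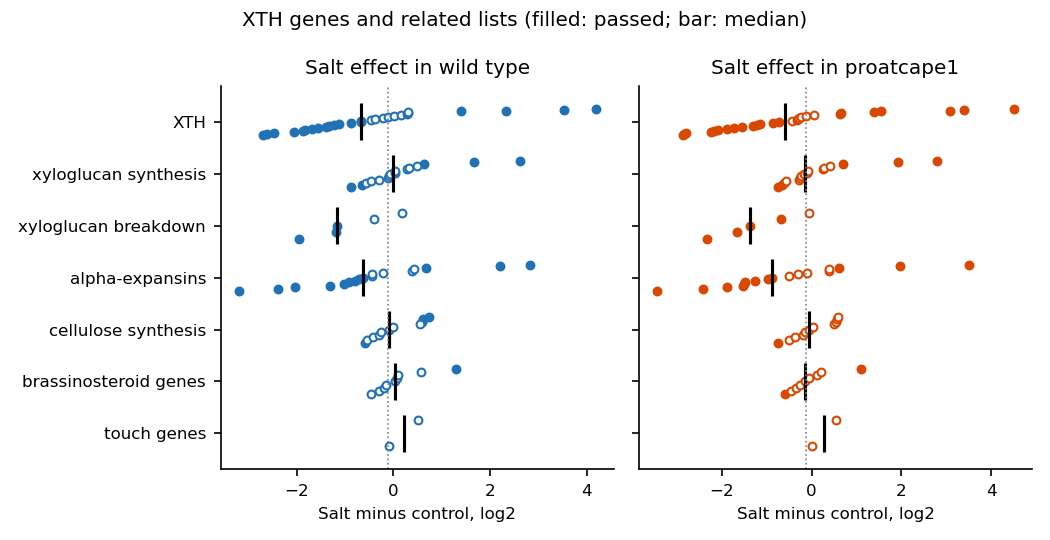
Salt effect (horizontal axis, log2) on each tested gene of the XTH family and of the related lists (vertical axis) in wild type (left) and proatcape1 (right), with filled points for genes that passed, a bar at the median of each list and a dotted line at the median of all loci tested. XTH genes spread to both sides of the dotted line, the rightmost being XTH29, whose controls were not well above background so that only a bound of at least 8.45-fold in wild type holds, and the genes of xyloglucan breakdown lie mostly to its left.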

How the data were processed

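Cy3-labelled cRNA of 12 seedling samples was hybridized by the authors to single-colour Agilent Arabidopsis arrays, 1 per sample, and read with Agilent Feature Extraction 10.7.1.1. The deposited scanner files hold the intensity of each spot, after background correction, with no scaling across arrays. The deposited table of log2 values, which the authors normalized in GeneSpring against Ler in medium alone, matched the scanner values scaled to the 75th percentile and was used only as an alternative.

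From the scanner files, 43803 noncontrol spots were averaged to 43603 probes, of which 76 were lost to outlier flags. Of the rest, 34306 were named through the array's annotation and RefSeq (TAIR10.1) as 25405 loci and 9221 had no locus. No genome coordinates are given because the array annotation names another build, and promoter motifs were not analysed here. The signal was divided by the 75th percentile of the array and log2-transformed. A probe was kept if its signal was over 100 with a coefficient of variation under 50% on the 3 arrays of at least 1 group, which left 28833 probes and 19027 loci, each read by its brightest kept probe. The number of arrays limits the precision.

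The 4 group means were fitted with limma 3.58.1 (R 4.3.3) without a block, and p-values were adjusted by the Benjamini-Hochberg method over all 19027 loci. The 5 comparisons were salt against control in each genotype, proatcape1 against wild type in each treatment, and the interaction. The 3 biological repeats of a group are as named by the labels. Each of the 3 slides held 1 array of every group, and replicate numbers follow the slides. Deviations from the group means of same-numbered arrays of the 2 genotypes correlated at 0.309, 0.237 and 0.366 under salt and at 0.087, 0.21 and 0.304 in control, and those of control and salt arrays between −0.203 and 0.12. The numbers thus paired the genotypes under salt, less clearly in control, and did not pair control with salt. The model was also run on simulated data with independent noise. That noise lacked the correlation of the genotypes on a slide, so the run does not bear on the pairing. Alternatives were normexp, quantile and median scaling, other probe filters, probe averages, the groups compared alone, the slide as a block, an intensity trend, unadjusted p, a 2-fold threshold, the deposited log2 values, each replicate left out and, chosen after seeing the data, slides 1 and 2 alone and the slide as a block within each treatment, which pairs the genotypes.

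All 33 XTH genes are accounted for, and from each related list up to 2 genes that passed and 2 that did not, by size of change, are named for each salt comparison, with every gene that passed between genotypes or in the interaction. Genes of the marker lists are not named one by one. That the XTH family is described, and which lists and tests go with it, was chosen with earlier results of these data known.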

Additional observations from a re-analysis of the deposited data

Results flagged for a closer look

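For 3 XTH genes the test of the interaction gave an adjusted p (limma) of at most 0.05, with no limit on the size of change. The share of all loci at this adjusted p alone was not counted. With the salt effect of wild type subtracted from that of proatcape1, the difference was −0.854 for XTH9 (adjusted p = 0.0426), −1.096 for XTH16 (adjusted p = 0.0253) and 0.3798 for XTH27 (adjusted p = 0.0338), in log2 units and with the same sign on all 3 slides for each gene. The replicate numbers did not pair control with salt, so the slides are not matched repeats of this difference. The difference for XTH27 was below 1.5-fold. The calls of XTH9 and XTH16 were not stable. With no filter on dim probes their adjusted p was 0.0868 and 0.0577, and with slides 1 and 2 alone it was 0.346 and 0.292. Without proatcape1 control replicate 3 it was 0.103 and 0.0619, and other single arrays left out had the same effect, as given above. The differences themselves were −0.71 and −0.97 with slides 1 and 2 alone and −0.79 and −1.09 without that array. Over all loci, 16 passed in the positive and 3 in the negative direction with slides 1 and 2 alone. Without proatcape1 control replicate 3, 118 and 96 did, against 241 and 246 on all arrays.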

How the results depend on the processing

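No XTH value changed direction past its call in any alternative. The counts of XTH genes that rose and fell under salt stayed within 1.5 times of those reported in every alternative. With 1 array left out they ranged from 4 to 5 higher and 13 to 15 lower in wild type and from 6 to 7 higher and 13 to 14 lower in proatcape1. The slide as a replicate block common to all 12 arrays left all counts as they were (4 and 15, 7 and 14, 0 and 1, 0 and 2, 0 and 2, higher and lower in the 5 comparisons). The slide as a block within each treatment, which pairs the genotypes, gave 2 genes lower in control (XTH22 and XTH24), 1 higher (XTH23) and 2 lower under salt, and 3 with a positive (XTH22, XTH23 and XTH24) and 2 with a negative interaction, where the fit without a block gave 1, 0, 2, 0 and 2. Over all 19027 loci the same 5 counts were 265, 560, 377, 383 and 306 with that block. Without a block they were 218, 518, 365, 241 and 246.

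The small counts between genotypes moved. For lower in proatcape1 control (1 gene), the count was 0 in a fit of the groups compared, 2 at an unadjusted p (XTH22 and XTH24), 0 at a 2-fold threshold, 0 with slides 1 and 2 alone and 0 to 2 with 1 array left out. Over all loci it was 218 in the main fit and 137, 350, 107, 63 and 120 to 314 in these settings. For higher in proatcape1 under salt (0 genes), it was 1 at an unadjusted p (XTH23) and 0 to 3 with 1 array left out. Over all loci it was 518 in the main fit and 565 and 366 to 687 in these settings. For lower under salt (2 genes), it was 1 at 2-fold (XTH16), 0 with slides 1 and 2 alone and 2 to 3 with 1 array left out. Over all loci it was 365 in the main fit and 50, 262 and 245 to 564 in these settings. For a positive interaction (0 genes), it was 3 at an unadjusted p (XTH22, XTH23 and XTH24) and 0 to 1 with 1 array left out. Over all loci it was 241 in the main fit and 515 and 112 to 396 in these settings. For a negative interaction (2 genes), it was 1 under median scaling, 1 with probes well above background kept and 1 at 2-fold (XTH16 in each), 0 with no filter on dim probes, 0 with slides 1 and 2 alone and 0 to 3 with 1 array left out. Over all loci it was 246 in the main fit and 188, 222, 18, 123, 3 and 96 to 413 in these settings. With slides 1 and 2 alone there are 2 arrays per group, and with no filter 25405 loci enter the adjustment. For the other changes the cause was not tested.

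Dim genes limit what can be read: XTH1 and XTH3 were not well above background on any array.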

Other observations

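Over all loci tested, 17.5% rose and 21.8% fell in wild type and 19.6% rose and 26.2% fell in proatcape1. Of 11 tested genes of cellulose synthesis, 3 rose and 1 fell in wild type and none rose and 1 fell in proatcape1. The largest changes that passed were CESA7 (0.75) and CESA8 (0.62), cellulose synthases of the secondary wall, in wild type and CESA2 (−0.74) in proatcape1. CESA5 (0.55) and COB (−0.54) in wild type and CESA8 (0.58) and CESA7 (0.57) in proatcape1 did not pass. None of these 11 genes passed in the interaction, where values lay between −0.18 and 0.11, so a difference in salt response was not shown.

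Of 9 tested brassinosteroid genes, the biosynthesis gene BR6OX2 rose in wild type (1.30) and in proatcape1 (1.11), and the biosynthesis gene CPD fell in proatcape1 (−0.59) but did not pass in wild type (−0.46). The transcription factor gene BES1 (0.58) in wild type and the inactivating enzyme gene BAS1 (−0.46) and the receptor gene BRI1 (−0.36) in proatcape1 did not pass. Of the touch genes, TCH2 (0.52 and 0.54) and TCH1 (−0.096 and −0.0019) passed in neither genotype.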
